A study of Mus musculus with 6 samples.

Results

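The genes described here encode 10 glycoproteins of the extracellular matrix: Postn, Tnc, Thbs1, Sparc, Fn1, Fbn1, Fbn2, Eln, Fbln2 and Emilin1. They were chosen by name, with earlier results of the same comparison known, and each was read at the probe set that carries its symbol alone. Of the 10, 9 had 1 such probe set each, so the highest mean level, which would have decided between several probe sets, was never needed. Fbn1, the gene of fibrillin-1, was not matched to a probe set, so its level is not analysed here. The 9 genes are among 19938 genes with a probe set of their own, and all 9 passed the filter on dim probe sets that left 13632 genes for the test.

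RNA was hybridised to 6 Affymetrix mouse gene arrays, 1 for each sample, from green fluorescent cells sorted from embryonic hearts at E12.5. Mice with the TNTCre, Yap flox and R26 mTmG alleles had been crossed. In TNTCre the promoter of cardiac troponin T drives Cre recombinase, and mTmG is a reporter that switches a cell to green once Cre has acted in it. The groups are Yap HET (3 arrays), heterozygous for Yap loss, and Yap KO (3 arrays), the knockout. Arrays are called HET 1 to HET 3 and KO 1 to KO 3 after the replicate numbers in their titles. Both groups were sorted for the green cells that Cre leaves behind, so the control is neither free of Cre nor wild type at Yap. Yap1 encodes a transcriptional coactivator that is held back by the Hippo kinases and acts mainly through TEAD factors. The series title places the comparison in the question of how Yap and PI3K-AKT signalling are linked in cardiomyocyte growth and survival.

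The matrix of the embryonic heart is a scaffold of glycoproteins, elastic fibres and collagens. It is made largely by cushion mesenchyme, endocardium, epicardium and, later, fibroblasts, with cardiomyocytes contributing part of it. Periostin, tenascin-C, thrombospondin-1 and SPARC are matricellular proteins: they are secreted into the matrix and alter how cells attach to it rather than bearing load. Fibronectin binds integrins and organises other matrix proteins. Fibrillins form microfibrils on which elastin is deposited, and fibulin-2 and EMILIN-1 are associated with those fibres.

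Promoter sequence is shown for Postn and Tnc, whose levels differed most between the groups, and for Sparc, whose levels differed least. Windows from the RefSeq promoter table of GRCm38.p6 were searched for 6 of the 10 genes. Fn1, Fbn2, Eln and Thbs1 were not among these. The windows are the 250 bases before an annotated start: chr3:54359017-54359266 (plus strand) and chr3:54360857-54361106 (plus strand) for 2 starts of Postn, chr4:64046937-64047186 (minus strand) for Tnc and chr11:55420081-55420330 (minus strand) for Sparc. Capitals mark matches to any of 4 motifs.
Postn upstream start: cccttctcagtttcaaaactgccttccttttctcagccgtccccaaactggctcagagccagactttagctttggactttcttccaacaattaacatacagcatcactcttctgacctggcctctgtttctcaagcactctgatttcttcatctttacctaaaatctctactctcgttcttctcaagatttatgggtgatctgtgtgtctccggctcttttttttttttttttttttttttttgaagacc
Postn downstream start: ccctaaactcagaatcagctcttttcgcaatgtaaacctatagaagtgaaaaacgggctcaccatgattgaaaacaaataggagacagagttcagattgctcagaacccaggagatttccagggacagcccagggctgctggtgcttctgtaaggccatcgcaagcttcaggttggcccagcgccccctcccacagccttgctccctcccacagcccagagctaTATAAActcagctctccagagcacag
Tnc: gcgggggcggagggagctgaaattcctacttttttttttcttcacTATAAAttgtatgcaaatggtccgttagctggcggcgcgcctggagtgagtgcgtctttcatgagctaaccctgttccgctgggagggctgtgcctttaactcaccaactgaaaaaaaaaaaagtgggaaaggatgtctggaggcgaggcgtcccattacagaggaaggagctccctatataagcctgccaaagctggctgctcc
Sparc: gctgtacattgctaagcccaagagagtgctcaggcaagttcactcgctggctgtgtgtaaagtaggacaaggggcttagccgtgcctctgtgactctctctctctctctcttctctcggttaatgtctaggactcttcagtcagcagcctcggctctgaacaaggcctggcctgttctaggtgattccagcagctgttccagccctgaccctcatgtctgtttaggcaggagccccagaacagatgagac
The motifs searched were the TEAD motif GGAATG and the AP-1 motif TGANTCA on both strands, the TATA motif TATAAA on the sense strand, and the CArG box, a name for the site of serum response factor. TATAAA lies at -26 from the downstream start of Postn and at -205 from this start of Tnc, counted so that -1 is the last base before the start. From an upstream start of Tnc, whose window is not shown, a match lies at -126. The Tnc window shown also holds the letters tatataag near its end, unmarked because only exact matches were searched. No motif match fell in the window of Sparc or in that of the upstream start of Postn. None of the windows of the 6 genes held the TEAD motif, the AP-1 motif or a CArG box, and no matches overlapped. Among 32851 windows of the same length in the table, 12.6% held the TEAD motif, 6.75% the AP-1 motif, 7.59% the TATA motif and 1.47% a CArG box. These are matches of letters and not measured binding.

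The values are deposited intensities on a linear scale, in arbitrary units, and the median over all probe sets lay between 128 and 140 on every array. Changes are given as log2 of Yap KO over Yap HET with the standard error (SE) of limma, a linear model with moderated variances, and adjusted p-values are Benjamini-Hochberg values over all 13632 genes. Yap1 read 871 to 927 in Yap HET and 84.7 to 103 in Yap KO, a 9.81-fold difference (limma adjusted p = 2.7e-06). At an adjusted p under 0.05 the Yap KO level was higher for 704 genes (5.16%) and lower for 649 (4.76%). Among these calls 52.0% were higher, against 75.7% when the arrays were centred on their medians. All calls together came to 1353 with all 6 arrays. With 1 array left out they came to 434 (HET 1), 1375 (HET 2), 689 (HET 3), 1038 (KO 1), 433 (KO 2) and 700 (KO 3). The 17 cardiomyocyte markers checked, among them troponin and myosin genes, all passed the filter, and their summed intensity was 116900 to 118400 in Yap HET and 116300 to 119600 in Yap KO. By limma 1 of them, Nppa, was higher (log2 change 0.19, adjusted p = 0.0487) and 0 were lower, while Tnni1 (-0.13) and Nkx2-5 (-0.18) were lower only at an unadjusted p under 0.05.

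Among the matricellular genes, Postn and Tnc were higher in Yap KO cells, 1.65-fold and 1.77-fold, while Thbs1 and Sparc did not pass the test. Postn, which encodes periostin, a fasciclin-domain protein of cushion mesenchyme and fibroblasts, read 1213, 922 and 1024 in Yap HET and 1470, 1885 and 1862 in Yap KO. The groups did not overlap, and the lowest Yap KO value, replicate 1, was 1.21 times the highest Yap HET value, also replicate 1. The means were 1053 ± 148 (SD, n = 3) and 1739 ± 234 (SD, n = 3), a log2 change of 0.72 ± 0.13 (SE) or 1.65-fold (95% interval 1.35 to 2.02; limma adjusted p = 0.0137). Tnc encodes tenascin-C, an anti-adhesive glycoprotein that appears in the heart during development and after injury. It read 809, 885 and 677 in Yap HET and 1333, 1606 and 1256 in Yap KO. Every Yap KO array lay well above every Yap HET array, with the lowest Yap KO value 1.42 times the highest Yap HET value. The means were 790 ± 105 (SD, n = 3) and 1398 ± 184 (SD, n = 3), a log2 change of 0.82 ± 0.12 (SE) or 1.77-fold (95% interval 1.46 to 2.15; limma adjusted p = 0.00743).

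**Figure D1:**
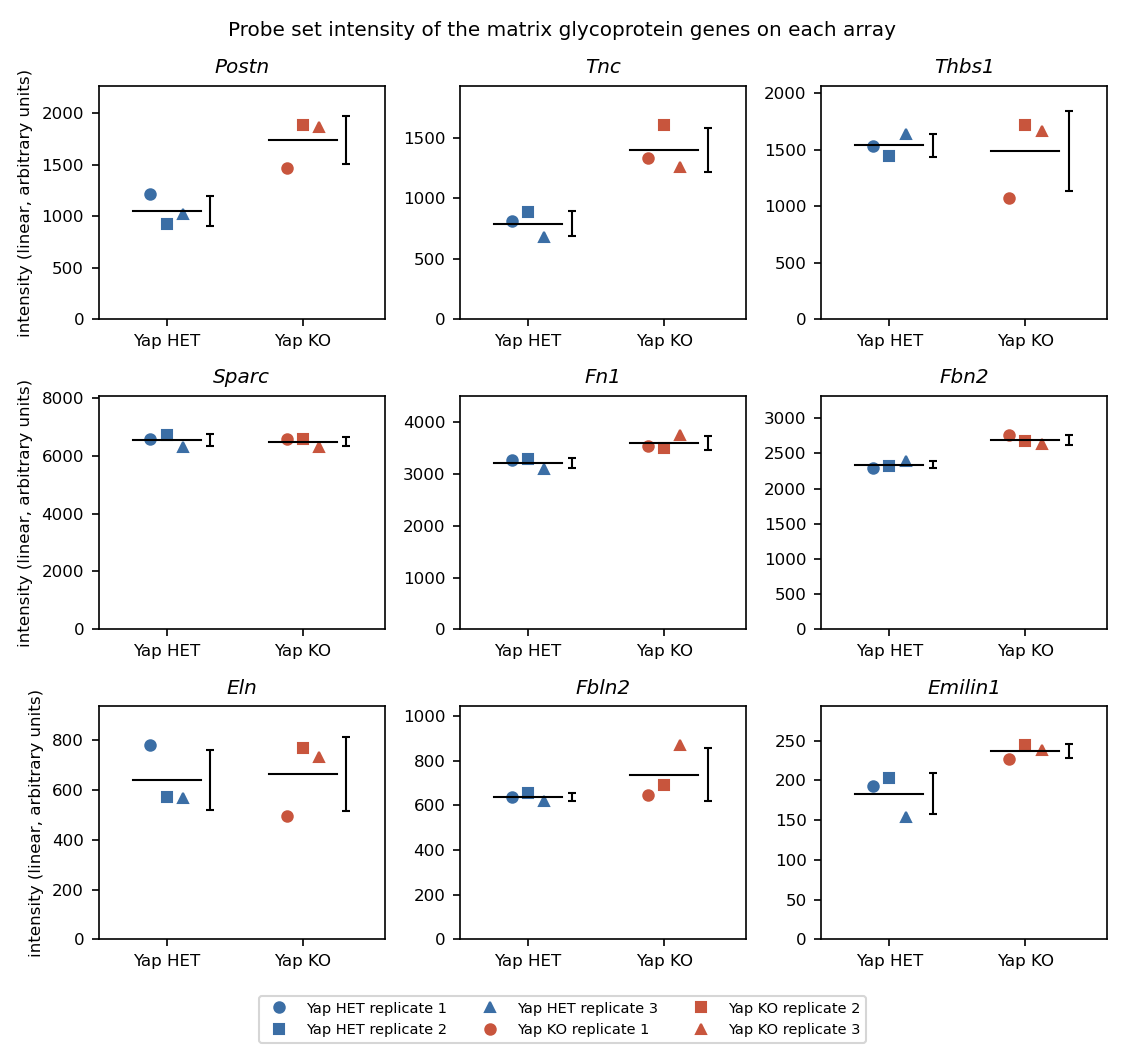
Linear probe set intensity (arbitrary units, axis from 0) of each gene on each of the 6 arrays, with Yap HET in blue and Yap KO in red. Symbols stand for replicate numbers, horizontal lines for group means and bars for the SD of 3 arrays. The red and blue points of Postn and Tnc do not overlap, those of Sparc do, and KO 1 lies apart from the other Yap KO arrays for Thbs1 and Eln.

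Thbs1 encodes thrombospondin-1, which activates latent TGF-beta and limits vessel growth, and is also known as a Yap target in other cells. Its intensities were 1533, 1443 and 1640 in Yap HET and 1078, 1720 and 1665 in Yap KO. KO 1 was the lowest of the 6 arrays and the other two Yap KO arrays were the highest, so the groups overlapped. The log2 change was -0.08 ± 0.17 (SE; 95% interval -0.46 to 0.31; limma adjusted p = 0.79), and 0.14 (limma adjusted p = 0.26) without KO 1. Sparc encodes SPARC, a calcium- and collagen-binding protein. It read 6575, 6717 and 6304 in Yap HET and 6578, 6566 and 6313 in Yap KO. These values lay within the same narrow span in both groups. The log2 change was -0.01 ± 0.05 (SE), with a 95% interval of -0.13 to 0.11, which corresponds to 0.916-fold to 1.08-fold (limma adjusted p = 0.92). The sign of this difference turned positive under quantile normalization, under median centring and without HET 2 or KO 3.

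Fibronectin and the fibrillin differed by less than the matricellular pair. Fn1, the gene of fibronectin, read 3262, 3282 and 3093 in Yap HET and 3547, 3509 and 3754 in Yap KO. All Yap KO values lay above all Yap HET values, by a small margin (lowest over highest 1.07). The log2 change of 0.17 ± 0.05 (SE), 1.12-fold with a 95% interval of 1.03 to 1.22, did not pass the threshold (limma adjusted p = 0.0913). It passed with the filter raised to the 60th percentile (limma adjusted p = 0.0496), with a trended and robust prior (limma adjusted p = 0.00657) and with array weights (limma adjusted p = 0.0268). Fbn2 encodes fibrillin-2, the microfibril protein typical of embryonic tissue. Its values were 2293, 2327 and 2390 in Yap HET and 2762, 2676 and 2632 in Yap KO, with little spread and no overlap. The means were 2337 ± 48.9 (SD, n = 3) and 2690 ± 66.0 (SD, n = 3), a log2 change of 0.20 ± 0.05 (SE) or 1.15-fold (95% interval 1.06 to 1.25; limma adjusted p = 0.0402). This call ended whichever array was left out, with limma adjusted p-values from 0.065 without HET 3 to 0.144 without HET 1, while the change stayed between 0.18 and 0.22. It also ended with no filter on dim probe sets (limma adjusted p = 0.102) and with every probe set tested (limma adjusted p = 0.0646).

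Of the elastic fibre genes, Emilin1 was closest to the threshold and Eln was far from it. Emilin1 encodes EMILIN-1, a glycoprotein at the border of elastin and microfibrils that restrains TGF-beta processing. Its intensities were those nearest to the filter level of 85.7, with 193, 203 and 154 in Yap HET and 227, 245 and 239 in Yap KO. The groups did not overlap, and HET 3 lay below the other Yap HET arrays. The log2 change was 0.38 ± 0.10 (SE), 1.30-fold with a 95% interval of 1.10 to 1.53, and did not pass (limma adjusted p = 0.0563). It passed with median centring, cyclic loess, an offset, a trended and robust prior, array weights or the level of Xist as a covariate, and without HET 2 (limma adjusted p from 0.00804 to 0.0471). Fbln2, the gene of fibulin-2, which is strong in cushion mesenchyme undergoing transformation, read 637, 655 and 617 in Yap HET and 649, 692 and 871 in Yap KO. KO 3 stood above the other arrays, and KO 1 lay inside the Yap HET range. The log2 change was 0.20 ± 0.10 (SE; 95% interval -0.04 to 0.44; limma adjusted p = 0.25), and 0.07 without KO 3. Eln, the gene of elastin, read 782, 574 and 568 in Yap HET and 495, 770 and 733 in Yap KO. Both groups held high and low arrays and overlapped over most of their range. The log2 change was 0.04 ± 0.19 (SE; 95% interval -0.38 to 0.47; limma adjusted p = 0.90), an interval wide enough to hold changes in either direction, and its sign depended on which array was left out.

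Of the 9 genes, 3 were higher (Postn, Tnc and Fbn2) and 0 lower in Yap KO by limma, while with an unadjusted p under 0.05 these counts were 5 and 0. At the adjusted threshold the background over all genes tested was 5.16% higher and 4.76% lower. An unadjusted p under 0.05 was far more common. Col3a1, with an unadjusted limma p of 0.0499, ranked 3847 of 13632 genes by p, with rises and falls ranked together. The unadjusted counts of the marker and related gene lists below are to be read beside that rank too. In 5 of the 9 genes all Yap KO values lay above all Yap HET values, against 16.7% of all genes tested, and in 0 they lay below, against 17.2%. Since the genes were named with this comparison in view, these counts describe the list and support nothing beyond it. The median log2 change was 0.20 over the 9 genes and -0.02 over all genes tested. The intervals of Postn and Tnc overlapped each other, and both lay above that of Sparc, though the difference between genes was not tested.

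**Figure D2:**
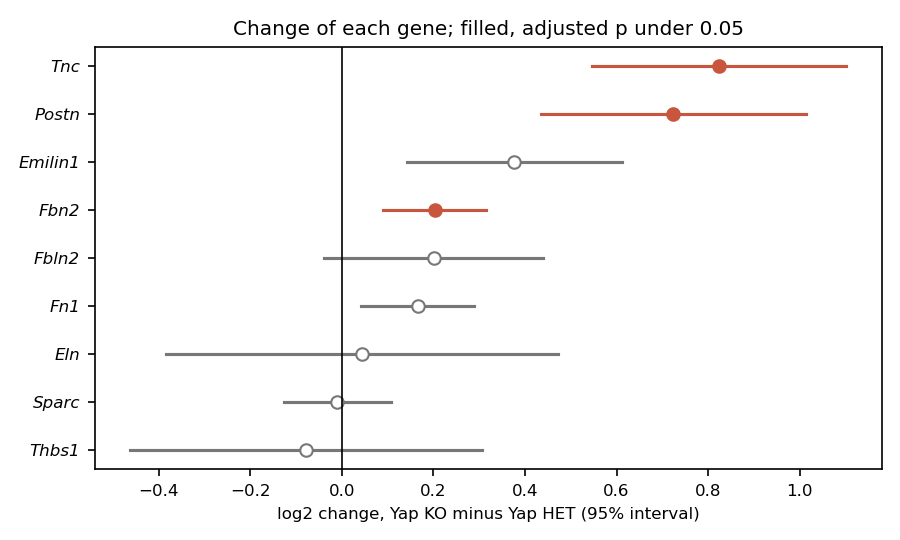
Log2 change of each gene, Yap KO minus Yap HET, on the horizontal axis, with the 95% interval of limma as a line. Filled points passed an adjusted p of 0.05 over all genes tested. Tnc (0.82) and Postn (0.72) lie apart from the rest, and the intervals of Eln, Sparc, Thbs1 and Fbln2 cross 0.

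The replicates of a group did not differ by the same amount for every gene. On the log2 scale the SD between replicates had a median of 0.16 over the 9 genes and 0.08 over all genes tested. KO 1 was the lowest Yap KO array for 5 of the 9 genes, namely Postn, Eln, Thbs1, Fbln2 and Emilin1. Its log2 distance from the group mean was -0.43 for Thbs1, -0.40 for Eln and -0.23 for Postn, but 0.02 for Sparc and 0.04 for Fbn2. HET 3 was the lowest Yap HET array for 6 of the 9 genes, with -0.24 for Emilin1 and -0.21 for Tnc. Eln and Postn were also the genes with the largest excess on HET 1, at 0.30 and 0.21. The change of Tnc passed the test whichever array was left out, with log2 changes from 0.72 to 0.91 and limma adjusted p-values from 0.00785 to 0.0343. Postn had log2 changes from 0.63 to 0.84 in those fits and lost its call without KO 2 (limma adjusted p = 0.0609).

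**Figure D3:**
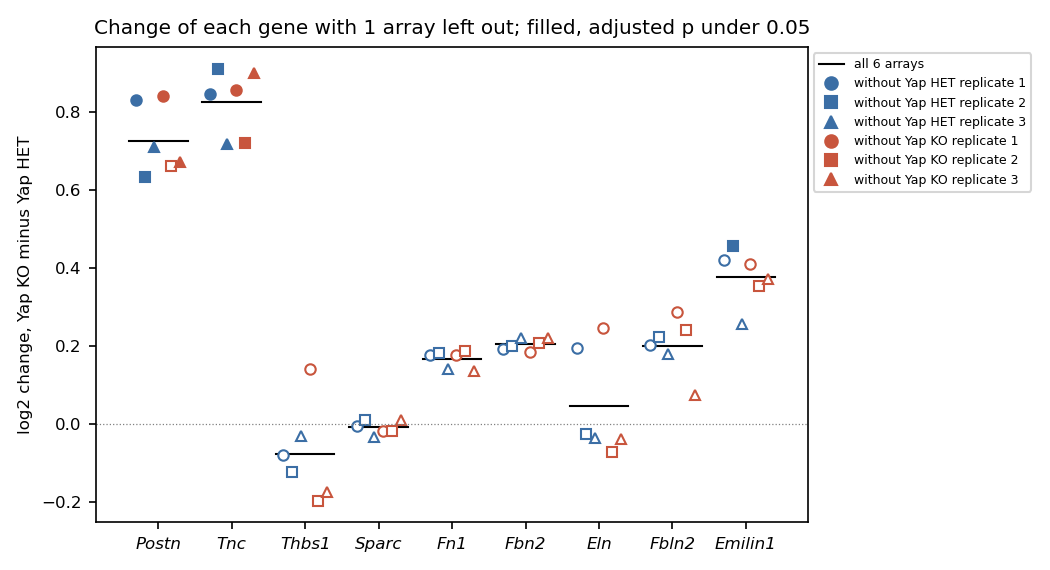
Log2 change of each gene (vertical axis, Yap KO minus Yap HET) with 1 of the 6 arrays left out, each symbol standing for the array removed and the black line for all 6 arrays. Filled symbols passed an adjusted p of 0.05 over all genes. Tnc is filled in all 6 cases, Fbn2 in none, and the point of Thbs1 without KO 1 lies at 0.14, above 0.

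Markers of other cell types moved beside these genes. In such sorted bulk RNA, more cells of a type and more RNA per cell cannot be told apart. Over all genes tested, 5.16% were higher and 4.76% lower by limma. All Yap KO values lay above all Yap HET values in 16.7% of genes and below them in 17.2%. The marker counts and group positions here and in the next paragraph are to be read beside these shares. Of 14 mesenchyme and fibroblast markers, all passed the filter, and 4 were higher and 0 lower in Yap KO: Pdgfra (log2 change 0.98), Tcf21 (0.93), Snai2 (0.52) and Sox9 (0.39). At an unadjusted limma p under 0.05, 9 were higher and 0 lower. Their summed intensity was 11650 to 11920 in Yap HET and 12400 to 14260 in Yap KO, without overlap. The highest array was KO 3. Of the 9 matrix genes, KO 3 was the highest Yap KO array for 2 and the lowest for 3. Fbln2 was highest there, while Tnc had its lowest Yap KO value there (1256). The collagen genes of the mesenchyme and fibroblast list did not pass. These were Col1a1 (0.26, limma adjusted p = 0.167), Col1a2 (0.18, limma adjusted p = 0.221), Col3a1 (0.31, limma adjusted p = 0.177) and Col5a1 (0.15, limma adjusted p = 0.176). Thy1 (-0.18), Vim (-0.04) and Dcn (-0.0037) of the same list had negative changes, also without passing. Of 8 smooth muscle and pericyte markers, Cspg4 (0.34) and Pdgfrb (0.73) were higher and their sums were 15110 to 15790 in Yap HET and 14360 to 15890 in Yap KO. At an unadjusted limma p under 0.05, 4 of these were higher and 1, Tagln, was lower (-0.46, limma adjusted p = 0.119), and the contractile gene Acta2 had a change of -0.15 (limma adjusted p = 0.192), with all Yap KO values of both genes below all Yap HET values. Among the same markers Myh11, a defining gene of mature smooth muscle, read 136 and 127 on average. Acta2 and Cnn1, with Yap HET means of 7815 and 4607, weighed most in the smooth muscle and pericyte sums. Vim, with a Yap HET mean of 6230, weighed most in the mesenchyme and fibroblast sums. Of 12 endothelial and endocardial markers Nfatc1 and Kdr were higher and Npr3 lower by limma, and without adjustment of p these counts were 4 and 1, with Tie1 under the filter level. The endothelial and endocardial sum was 1979 to 2104 in Yap HET and 2194 to 2326 in Yap KO.

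Of 9 epicardial markers, 0 passed in either direction by limma, while 4 were lower and 0 higher with an unadjusted p under 0.05, and their sums were 4943 to 5758 in Yap HET and 3931 to 4952 in Yap KO. For erythroid markers the sums were 422 to 816 in Yap HET and 551 to 2715 in Yap KO, the highest on KO 1, the array on which Thbs1 and Eln were lowest. Among the Yap HET arrays the erythroid sum was highest on HET 1 (816). There Eln was also highest, and Thbs1 lay near its group mean (log2 distance -0.003). Of 6 erythroid markers with a probe set, Alas2 was under the filter level and 0 passed by limma, with 1 higher at an unadjusted p under 0.05. Myeloid sums, in which Lyz2 was higher and Fcgr3 and Mrc1 were under the filter level, were 1715 to 2025 and 1817 to 1977. Of the 5 myeloid markers tested, 3 were lower without passing: Cd68 (-0.72, limma adjusted p = 0.0632), Csf1r (-0.21, limma adjusted p = 0.105) and Ptprc (-0.17, limma adjusted p = 0.0738), each with an unadjusted p under 0.05 and all Yap KO values below all Yap HET values. Neural crest and glial sums were 479 to 520 and 525 to 544, with Foxd3 under the filter level and 3 of 6 markers without a probe set. The part of any of these cell types in the values of the matrix genes was not tested.

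**Figure D4:**
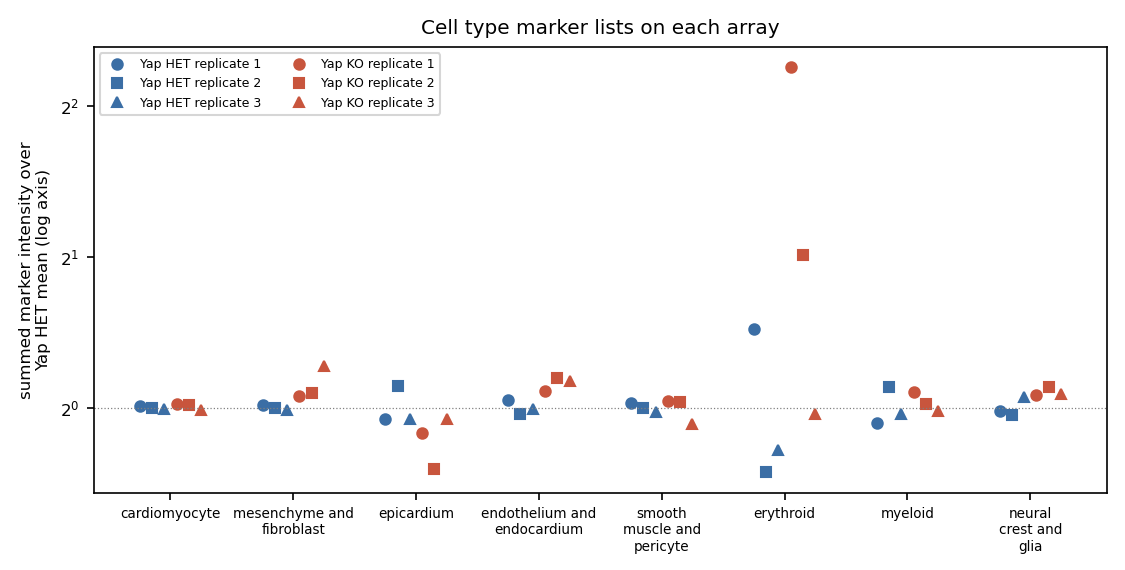
Summed linear intensity of each marker list on each array, divided by the mean of the Yap HET arrays, on a log axis. The brightest genes of a list weigh most in its sum. Blue symbols are Yap HET and red symbols Yap KO arrays. The cardiomyocyte sums lie close to 1 on all arrays, the mesenchyme sums of Yap KO lie above those of Yap HET, and the erythroid sum of KO 1 (2715) is the highest of its list.

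A list of integrin and other receptor genes, not all of them receptors of these proteins, held more rises than falls. Of 23 integrin and other receptor genes, 20 were tested, 8 rose and 1 fell, with a median log2 change of 0.21 against -0.02 over all genes tested. Over all genes tested 5.16% rose and 4.76% fell, and the counts of the lists that follow are to be read beside these shares too. Itgav, the alpha-v chain that binds fibronectin, periostin and fibrillin, read 997 ± 31.9 (SD, n = 3) in Yap HET and 1442 ± 47.3 in Yap KO, a log2 change of 0.53 ± 0.05 (limma adjusted p = 0.00238). Its partner chains Itgb3 (0.45 ± 0.07) and Itgb5 (0.33 ± 0.05) rose as well. Itga9, a chain of a tenascin-C receptor, rose by 0.58 ± 0.06 (limma adjusted p = 0.00293), and Itga6, a laminin receptor chain, by 0.42 ± 0.07. The fall was in Itga3 (-0.31 ± 0.05), another laminin receptor chain, named after its value was seen. The 8 rises became 4 without HET 1, and the 1 fall became 0 without KO 2.

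Relatives of the elastic fibre genes went both ways. Of 26 listed, 21 were tested, 3 rose and 3 fell, and the median was -0.09. Ltbp4, a latent TGF-beta binding protein gene of elastic fibres, rose from 293 ± 13.4 to 478 ± 31.7 (log2 change 0.71 ± 0.07, limma adjusted p = 0.00184). Ltbp1 rose by 0.42 ± 0.05 and Adamtsl2, the gene of a fibrillin- and LTBP-binding protein, by 0.81 ± 0.12. The falls included Loxl1, a lysyl oxidase that cross-links elastin (-0.39 ± 0.09), and Adamtsl5 (-0.44 ± 0.07). The 3 falls became 1 without HET 1, HET 2 or KO 2.

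Of 25 relatives of the matricellular genes, 17 were tested, 2 rose and 1 fell, with a median of 0.02. Thbs4, a thrombospondin of muscle and tendon, rose from 1905 ± 166 to 2924 ± 221 (log2 change 0.62 ± 0.08, limma adjusted p = 0.00551). Sparcl1, the closest relative of Sparc, rose by 0.78 ± 0.17 (limma adjusted p = 0.0301). Ccn1, an integrin-binding matricellular gene known as a Yap target, fell by 0.69 ± 0.11 on the log2 scale. Of its family, Ccn2 (-0.14), Ccn3 (0.02), Ccn4 (0.16) and Ccn5 (-0.22) did not pass, and were named after their values were seen. The 2 rises became 1 without HET 1, HET 3, KO 2 or KO 3, and the 1 fall became 2 without KO 1.

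**Figure D5:**
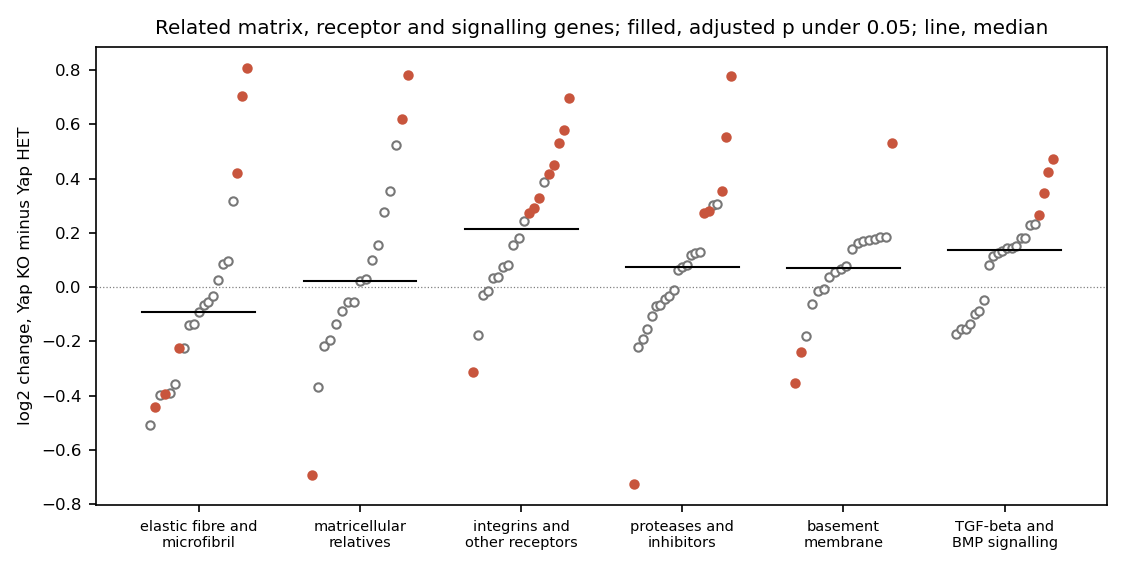
Log2 change, Yap KO minus Yap HET, of every tested gene in 6 lists, in order of size within each list. Filled points passed an adjusted p of 0.05 over all genes, and black lines are list medians. The receptor list has the highest median (0.21) and the elastic fibre list the lowest (-0.09).

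Among 29 matrix proteases and their inhibitors, 23 were tested, 5 rose and 1 fell (median 0.08). Mmp2, a gelatinase that degrades fibronectin and other matrix proteins, rose from 616 ± 53.8 to 1056 ± 91.3 (log2 change 0.78 ± 0.09, limma adjusted p = 0.00314). Mmp14, which activates it, rose by 0.28 ± 0.06, and so did Plat (0.36 ± 0.06) and Furin, the gene of a proprotein convertase (0.27 ± 0.06, limma adjusted p = 0.0333). Pcolce, which enhances procollagen processing, fell from 2069 ± 24.1 to 1251 ± 55.6 (log2 change -0.73 ± 0.05, limma adjusted p = 5.91e-04). The 5 rises became 1 without HET 1 or KO 2, 2 without HET 3 and 3 without HET 2.

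In the basement membrane list, 18 of 19 genes were tested, 1 rose and 2 fell (median 0.07). Nid1, a linker of laminin and collagen IV, rose by 0.53 ± 0.09, and the laminin chain genes Lama3 (-0.35 ± 0.07) and Lama1 (-0.24 ± 0.06) fell. The 1 rise became 0 without HET 1 and 2 without HET 2 or KO 1. The 2 falls became 1 without HET 2 or HET 3 and 0 without any other array.

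TGF-beta and BMP signals are known inducers of Postn, Tnc and Fn1. The list of 22 tested genes held genes of these signals and also Srf, the gene of serum response factor, Mrtfa and Mrtfb. Of the 22, 4 rose and 0 fell by limma, and 13 were higher and 4 lower with an unadjusted p under 0.05 (median 0.14). The 4 lower genes were Tgfbr3 (-0.17), Srf (-0.15), Mrtfb (-0.15) and Mrtfa (-0.14). Tgfb1 read 169 ± 15.2 in Yap HET and 226 ± 2.77 in Yap KO, a log2 change of 0.42 ± 0.07 (limma adjusted p = 0.0114). Bmp2, a cushion-inducing ligand, rose by 0.47 ± 0.07, the shared mediator gene Smad4 by 0.27 ± 0.06 and the feedback inhibitor gene Smad7 by 0.35 ± 0.09. The 4 rises became 2 without HET 1, HET 3 or KO 1, and 1 without KO 2.

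The genes nearest to Postn over the 6 arrays, by root mean square difference of centred log2 values, were 1700086L19Rik (0.09), Wif1 (0.10) and Myom2 (0.11). Wif1, a secreted Wnt inhibitor gene, had means of 91.4 and 165 in Yap HET and Yap KO, and Myom2, an M-band protein gene of muscle, had 132 and 195. Nearest to Tnc were Clic6 (0.07), Egln3 (0.08) and Prss23 (0.08). Egln3, an oxygen sensor gene, had means of 412 and 763, and Prss23, a serine protease gene, 329 and 628. This likeness was measured over 6 arrays in 2 groups, so it mainly reflects a group difference of similar size.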

How the data were processed

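The deposited intensities, 1 column for each of 6 samples, are linear values of 35556 probe sets. The authors used RMA (no version), per the submitters' processing notes; RMA usually gives log2 values, and the sources used here do not say how linear values arose. Names came from the platform annotation and were updated through Entrez identifiers. The probe set with the highest geometric mean represented a gene, and a gene had to reach the 40th percentile of probe set means (85.7). Log2 intensities were tested across all genes with lmFit and eBayes in limma 3.58.1 (R 4.3.3), with group as the only term, Benjamini-Hochberg adjustment and a threshold of 0.05. The number of arrays limits precision, and no detection calls were used. The design text calls the replicates biological; shared litters are not stated.

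The genes and lists were chosen with earlier results of these data known. All 10 named genes are listed, and levels are given for the 9 with a probe set. From each related list, up to 5 genes past the threshold with the smallest p-values are named; for Postn and Tnc, the 3 nearest genes. Alternatives covered the filter, probe set choice, normalization, offset, prior, array weights, block, Xist, moderation and each array left out. The test was checked on simulated data.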

Additional observations from a re-analysis of the deposited data

How the results depend on the processing

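Of 170 values for the 9 genes over 19 alternatives, 136 kept their direction and side of the threshold, 13 lost a call, 10 gained one and 11 changed sign, all 11 in Eln, Sparc or Thbs1, which had no call. Emilin1 could not be tested with the 60th percentile filter, which it did not pass. Of the 9 genes, 5 were higher with a trended and robust prior, 5 with array weights and 0 in an unmoderated linear model, in which Postn and Tnc kept their size (limma adjusted p = 0.107 and 0.0859 without moderation), and 1 to 3 with 1 array left out. None was lower under any alternative. Without 1 array, Eln ranged from -0.074 to 0.244, Sparc from -0.035 to 0.01 and Thbs1 from -0.198 to 0.139. Array weights gave -0.136 for Eln and 0.006 for Thbs1, and Sparc was 0.026 with quantile normalization and 0.051 with median centring. Over all genes, the higher and lower calls were 271 and 237 with no filter, 445 and 427 with every probe set, 1189 and 1057 with the trended and robust prior, 2038 and 2579 with array weights, 94 and 137 without moderation, and 214 to 783 and 206 to 597 with 1 array left out. Median centring gave 339 lower genes. With the replicate number as a block, 395 genes were higher and 303 lower, and Fbn2 lost its call (limma adjusted p = 0.112). The labels do not say that the numbers pair the samples, and the correlations of deviations between same-numbered arrays were -0.076, -0.171 and 0.124, so the block was not the main fit. The causes of these shifts were not tested. Of the 9 genes, Emilin1 lay nearest to the filter level.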
